A study of Mus musculus with 4 samples.

Results

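Atrial natriuretic peptide and the transcription factors of heart muscle were followed as 9 genes in mouse lung: the peptide gene Nppa, the transcription regulators Nkx2-5, Tbx5, Tbx20, Gata4, Gata6, Hand2 and Myocd, and the connexin gene Gja5. The members were chosen by symbol, and every probe set annotated to exactly 1 of these symbols was taken. This gave 18 of the 34945 probe sets that carry a single symbol, and all 9 genes had at least 1. Lung RNA was hybridised to 1 single-colour Affymetrix array per sample. There were 2 wild type lungs and 2 lungs with a floxed IKKα allele (IKKa floxed), all of strain B6/J. Every mouse, wild type included, had received adenovirus with Cre recombinase through the trachea, and lungs were taken 4 months later. IKKα is a kinase that activates NF-κB transcription factors, and Cre excises DNA between loxP sites. Cre from a virus given into the airways acts only in the cells that the virus reaches, whereas the RNA came from whole tissue. The sources used here name no age, sex, zygosity or promoter for Cre, and the transcript of the targeted gene is not analysed here.

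Nppa encodes the precursor of atrial natriuretic peptide, a hormone that atrial muscle cells store in granules and that relaxes vessels and promotes salt excretion through a receptor guanylate cyclase. Nkx2-5, Tbx5, Tbx20, Gata4 and Hand2 act together in heart formation, and Nppa and Gja5 are classic target genes of Nkx2-5 and Tbx5. Myocd, or myocardin, is a coactivator of serum response factor that drives heart and smooth muscle genes. In mice, the pulmonary veins carry a sleeve of heart muscle of atrial type into the lung. Several of the factors also work outside the heart: Tbx5 in lung mesenchyme, Gata6 in lung epithelium and smooth muscle, Hand2 in sympathetic neurons, and Gja5 in the endothelium of arteries.

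The deposited values are linear intensities, with array medians of 32.1 to 34.3. Arrays with so few replicates limit the precision, and the labels do not say that each array is a separate animal, so p-values measure only the spread between these samples. Markers of alveolar type 2 cells, the surfactant-producing cells of lung, summed to 33717 and 32842 in wild type against 40762 and 37035 in floxed lungs, which matches the labelled tissue. Other measures moved with genotype. Xist, the RNA of the inactive X chromosome, stood at 31.8 and 22.9 in wild type against 4246 and 4629 in floxed lungs. Eif2s3y, a gene of the Y chromosome, read 519 and 530 in wild type against 3.77 and 6.14 in floxed lungs. These readings follow a male pattern in wild type and a female pattern in floxed lungs. For Gapdh, the array's 3′ control probes over its 5′ ones, which track RNA integrity, gave ratios of 1.18 and 1.10 for the wild type samples against 1.44 and 1.68 for the floxed samples. The same ratio for actin differed less, at 2.65 and 2.46 in wild type against 2.67 and 2.77 in floxed samples. Sex pattern and genotype cannot be told apart here, and the part of RNA integrity in the values below was not tested.

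A probe set was called near background on an array where its intensity was under the 95th percentile of 80 probe sets for olfactory and vomeronasal receptors, genes of the nasal sensory organs. That level was 17.2 and 20.4 on the wild type arrays and 20.6 and 20.0 on the floxed arrays. Of the 18 member probe sets, 9 were near background on all 4 arrays, 5 on some arrays, and 4 on none. The 4 clear of background were 1 probe set of Tbx5 and all 3 of Gata6. For Tbx20, Hand2 and Gja5 every probe set was near background on every array. Over all named probe sets, 26.6% were near background on all 4 arrays. Near-background values carry no usable order, so they are given as levels and no difference is read from them.

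**Figure D1:**
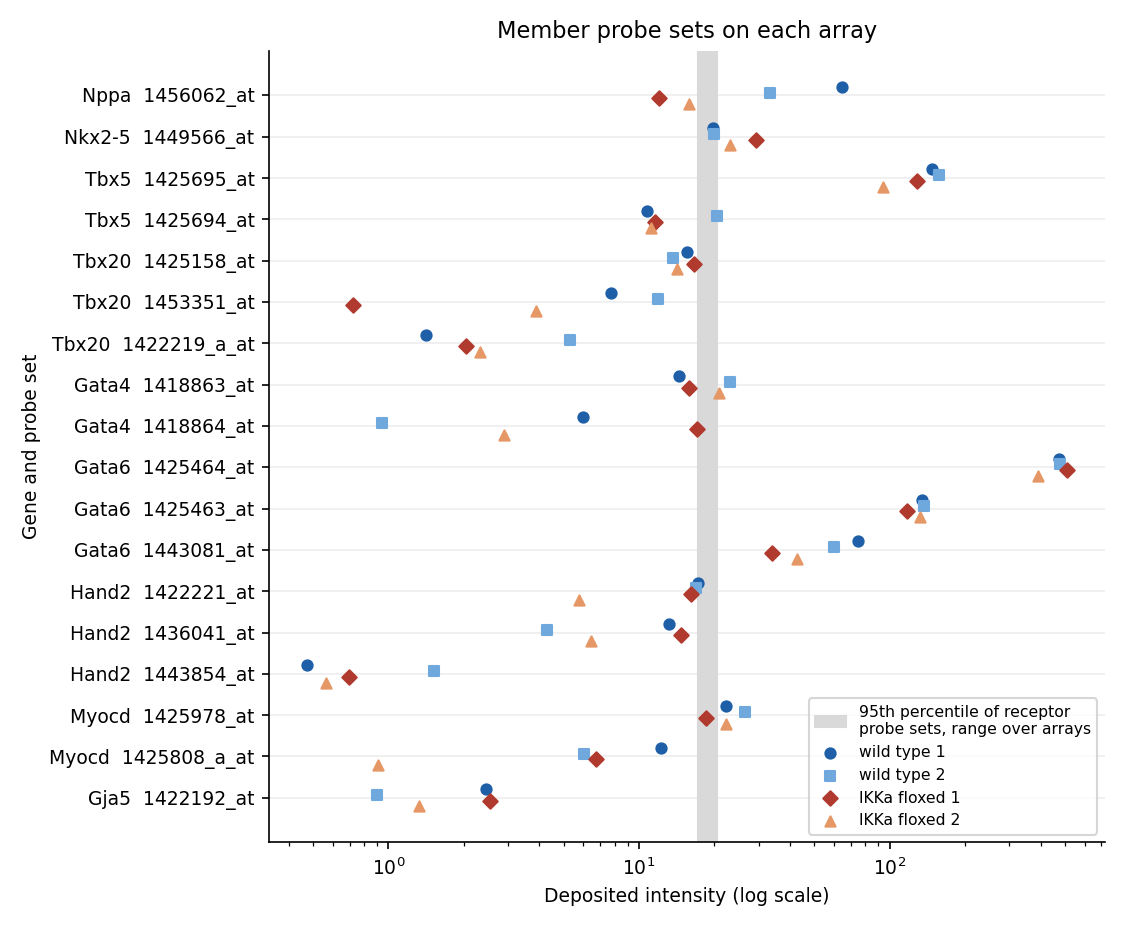
Deposited intensity (log scale) of the 18 member probe sets, 1 row each, on the 4 arrays. The grey band spans the background level of the 4 arrays, 17.2 to 20.6. All Gata6 points and those of Tbx5 1425695_at lie to its right, the wild type Nppa points lie to its right and the floxed Nppa points to its left.

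Genes were compared with limma on log2(intensity + 16), with 1 probe set a gene (that of highest mean level), after leaving out genes under the 30th percentile of mean level (intensity 20.4). This tested 12735 genes, and 5 members were among them: Nppa, Nkx2-5, Tbx5, Gata6 and Myocd. Of these, Nppa and Myocd were past that level only in wild type and Nkx2-5 only in floxed lungs. None of the 5 passed an adjusted p of 0.05, against 1.73% of all genes tested. At an unadjusted p under 0.05 there were 2, Nppa and Tbx5, against 14.3% of all genes. With a prior that allows an intensity trend and outlying variances, 1 passed, Nppa (limma adjusted p = 0.0476). Of the 18 probe sets, tested or not, 8 did not overlap between groups (44.4%), against 41.0% of all named probe sets. Without overlap, 7 of the 18 were lower and 1 of the 18, Nkx2-5, was higher in the floxed lungs. Of all named probe sets, 22.2% were lower and 18.8% higher without overlap. For 2 of the 7, Tbx20 1453351_at and Hand2 1422221_at, all 4 arrays were near background and the order is not usable.

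Nppa had the largest log2 fold change of the 5 member genes tested, on the log2(intensity + 16) scale. Its single probe set, 1456062_at, read 64.3 and 33.2 in wild type against 11.97 and 15.8 in floxed lungs. Both wild type arrays were above their background level and both floxed arrays below theirs, and the groups did not overlap. The wild type arrays themselves differed, with replicate 1 well above replicate 2. The means were 48.8 ± 22.0 and 13.9 ± 2.72 (SD, n = 2 each), a log2 fold change of -1.08 ± 0.23 SE with a 95% interval from -1.62 to -0.53 (limma adjusted p = 0.0891). This is a 2.11-fold difference on the log2(intensity + 16) scale, which understates the change of low genes. Because both floxed readings were below background, the size is not settled: it was -1.68 with a pseudocount of 1 and -0.52 with one of 64. Without wild type replicate 2, the array with the lower wild type reading, Nppa passed the test (log2 fold change -1.43, limma adjusted p = 0.00603). Without wild type replicate 1 the difference was -0.72 (limma adjusted p = 0.153). In whole lung, fewer cells of a type and less RNA per cell cannot be told apart.

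The promoter of Nppa is shown because it holds the letters of motifs named for factor families measured here. Promoters of 300 bases, from 250 before to 50 after the RefSeq start (build GRCm38.p6), were listed for 5 of the 9 members, and those of Nppa and Gja5, the 2 target genes, are printed. Nppa lies at chr4:148000472-148000771 and Gja5 at chr3:97032152-97032451, both on the plus strand. Capitals mark matches to the T-box motif (GGTGTGA), the NK2 motif (TNAAGTG), the GATA motif (AGATAA or AGATAG, or either with T as its first base), each on either strand, and to TATAAA on the gene's strand.
Nppa: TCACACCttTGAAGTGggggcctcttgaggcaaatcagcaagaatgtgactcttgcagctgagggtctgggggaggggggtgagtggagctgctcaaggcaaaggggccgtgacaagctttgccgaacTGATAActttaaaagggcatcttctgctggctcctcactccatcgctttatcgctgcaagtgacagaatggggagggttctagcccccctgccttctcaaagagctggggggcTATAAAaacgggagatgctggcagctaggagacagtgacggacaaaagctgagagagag
Gja5: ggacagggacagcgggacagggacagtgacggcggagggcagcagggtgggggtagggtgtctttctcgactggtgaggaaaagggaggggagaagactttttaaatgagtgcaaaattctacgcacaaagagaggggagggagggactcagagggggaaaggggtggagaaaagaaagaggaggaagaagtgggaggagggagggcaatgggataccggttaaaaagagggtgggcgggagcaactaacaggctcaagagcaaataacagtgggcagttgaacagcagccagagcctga
The Nppa window held 1 T-box match (first base at -250 from the start), 1 NK2 match (-241), 1 GATA match (-122) and 1 TATAAA (-9), and the capitals do not overlap each other. It also held 2 E-boxes (CANNTG, the letters bound by Hand2 and its partners; this motif can overlap an NK2 match). Of 32544 promoters of this length, 3.95% held the T-box motif, 11.5% the NK2 motif, 29.6% the GATA motif, 8.28% TATAAA and 72.3% an E-box. The Gja5 window held none of the capitalised motifs and 1 E-box. The CArG box, the site of serum response factor, had 0 matches in both windows and was held by 1.64% of promoters. A match describes letters, not binding, and no match says only that the letters are not in this window.

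Among the factors that bind such motifs, Nkx2-5, the NK2 homeobox factor of heart muscle, was the 1 member whose floxed readings lay above both wild type readings. Its probe set 1449566_at read 19.7 and 19.9 in wild type against 29.3 and 23.2 in floxed lungs. The wild type values lay within a few units of background, wild type replicate 2 just under it, and the floxed values lay above it. The log2 fold change was 0.24 ± 0.13 SE (95% interval -0.071 to 0.54, limma adjusted p = 0.481), so a difference was not detectable at this level of signal.

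Tbx5, the T-box factor of atrium and lung mesenchyme, was clearly measured by 1 of its 2 probe sets. Probe set 1425695_at read 148 and 157 in wild type against 129 and 94.3 in floxed lungs. All readings were above background, and both floxed arrays were lower than both wild type arrays. The log2 fold change was -0.42 ± 0.16 SE (95% interval -0.79 to -0.037), with an unadjusted p of 0.0358 and a limma adjusted p of 0.307. Its size depended on the floxed arrays: it was -0.61 without floxed replicate 1 and -0.22 without floxed replicate 2. The second probe set, 1425694_at, read 10.7 and 20.5 in wild type against 11.6 and 11.2 in floxed lungs. Of these readings only wild type replicate 2 was above its array's background, by less than 1 unit.

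Tbx20, the T-box factor that heart muscle needs alongside Tbx5, was near background throughout. Its probe set with the highest level, 1425158_at, read 15.6 and 13.6 in wild type against 16.5 and 14.1 in floxed lungs. Probe set 1453351_at read 7.70 and 11.9 in wild type against 0.720 and 3.89 in floxed lungs. Those groups did not overlap, but every value was below the receptor level of its array. The third, 1422219_a_at, ranged from 1.41 to 5.29.

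The GATA zinc finger factors differed in how well they were measured. Gata4, a partner of Nkx2-5 and Tbx5 in the heart, read 14.5 and 23.0 in wild type against 15.9 and 20.9 in floxed lungs on 1418863_at. The groups overlapped, with 1 array of each just above its background level. On 1418864_at Gata4 read 5.98 and 0.944 in wild type against 17.0 and 2.88 in floxed lungs, all near background.

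Gata6, a factor of lung epithelium, smooth muscle and heart, was above background on every array with all 3 probe sets. Probe set 1425464_at read 474 and 479 in wild type against 509 and 391 in floxed lungs. The groups overlapped because the floxed arrays lay on either side of the wild type pair. The log2 fold change was -0.092 ± 0.15 SE (95% interval -0.46 to 0.27, limma adjusted p = 0.844), and it turned to 0.092 without floxed replicate 2. Probe set 1425463_at read 134 and 137 in wild type against 118 and 132 in floxed lungs, a log2 fold change of -0.11 ± 0.13 SE.

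The remaining Gata6 probe set gave a larger difference than the other two. Probe set 1443081_at read 74.7 and 60.1 in wild type against 33.9 and 42.9 in floxed lungs. Both floxed arrays were below both wild type arrays, and all 4 were above background. In a fit of all 22561 named probe sets past the same level, its log2 fold change was -0.62 ± 0.16 SE (95% interval -0.99 to -0.25) with an unadjusted p of 0.00571 and a limma adjusted p of 0.183. In that fit 0.944% of probe sets passed, none of them among the 7 member probe sets tested. The intervals of the 3 Gata6 probe sets overlap, and the difference between them was not tested.

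Hand2, a basic helix-loop-helix factor of the heart and of sympathetic neurons, was near background on all arrays with its 3 probe sets. Probe set 1422221_at read 17.1 and 16.9 in wild type against 16.1 and 5.76 in floxed lungs. The groups were apart by under 1 unit, and floxed replicate 2 stood apart. Probe set 1436041_at read 13.2 and 4.29 in wild type against 14.7 and 6.41 in floxed lungs, while 1443854_at stayed between 0.474 and 1.52.

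Myocd, the coactivator of smooth and heart muscle genes, was just above background on most arrays. Probe set 1425978_at read 22.3 and 26.4 in wild type against 18.5 and 22.1 in floxed lungs, with floxed replicate 1 under its background level. The floxed arrays were lower, but the gap between the groups was below 1 unit. The log2 fold change was -0.15 ± 0.13 SE (95% interval -0.46 to 0.15, limma adjusted p = 0.653). Its other probe set, 1425808_a_at, was near background and ranged from 0.910 to 12.3.

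Gja5 encodes connexin 40, the gap junction protein of atrial muscle and of arterial endothelium. Its single probe set, 1422192_at, read 2.44 and 0.901 in wild type against 2.55 and 1.32 in floxed lungs. Both groups were far below the receptor level, and their ranges overlapped. Markers of arterial endothelium were nevertheless measured in these lungs: all 8 fixed markers were tested, none was near background on any array, and none passed (median log2 fold change 0.043). Among them, the ephrin Efnb2 read 1790 and 2010 in wild type against 1738 and 2157 in floxed lungs. At this level the probe set shows neither that Gja5 is expressed nor that it is absent.

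**Figure D2:**
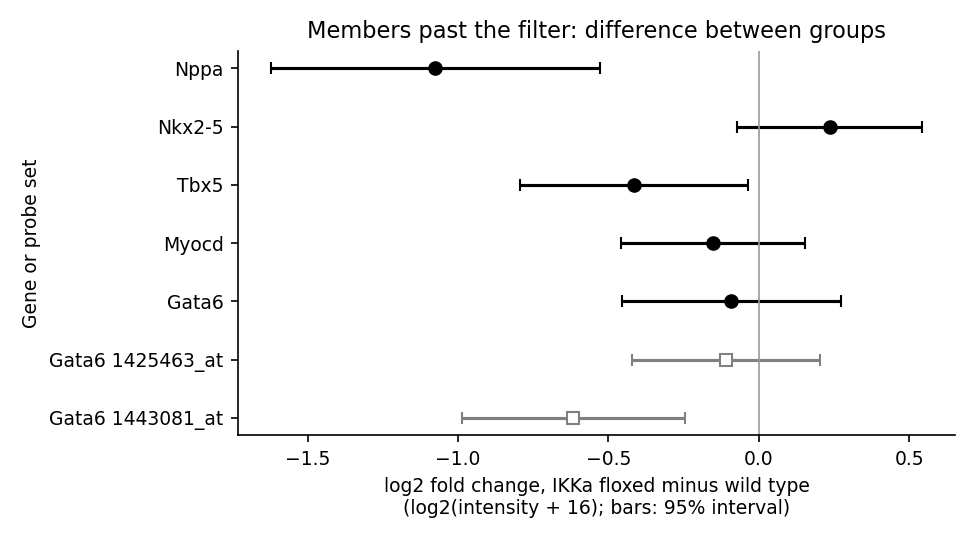
log2 fold change of the members past the filter, floxed minus wild type, on log2(intensity + 16), with 95% intervals from limma. Black circles are the 5 genes of the fit over genes, and grey squares are the other Gata6 probe sets, from the fit over probe sets. The intervals of Nppa (-1.62 to -0.53), Tbx5 and Gata6 1443081_at lie below 0, although none passed after adjustment.

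Most of the fixed cardiomyocyte markers that were tested fell in the same floxed lungs. Of 24 fixed cardiomyocyte markers, 21 were tested, 16 fell, 0 rose and 5 did not pass. The 5 included Atp2a2, a calcium pump gene, at a log2 fold change of 0.043. The others were Casq2, Actn2, Myom1 and Mybpc3 at -0.95, -0.68, -0.45 and -0.55 (limma adjusted p = 0.0891 to 0.919 over the 5). Of the 16, 7 had a floxed level under the filter and so were tested only through wild type: Myh6, Sln, Myl3, Ryr2, Pln, Myoz2 and Hspb7. Of all genes tested, 0.730% fell and 0.997% rose. The count that fell was 13 to 17 when 1 array was left out, and 11 of 24 with no filter on low genes. The median log2 fold change was -1.77, while that of all genes tested was 1.7e-05. These markers were chosen with earlier results of these data known. Their summed intensity was 7219 and 10359 in wild type against 2411 and 2223 in floxed lungs, and none was near background on all 4 arrays. The sums include Atp2a2, which did not pass and read 1300 and 1483 in wild type against 1428 and 1434 in floxed lungs. Of 5 atrial markers, 4 fell (Myl7, Myl4, Sln and Myh6), all of which are also on the cardiomyocyte list. The fifth, Dkk3, read 176 and 230 in wild type against 211 and 222 in floxed lungs (log2 fold change 0.095, limma adjusted p = 0.835). The atrial light chain gene Myl7 read 1028 and 1474 in wild type against 25.6 and 25.0 in floxed lungs (log2 fold change -4.92 ± 0.18 SE, limma adjusted p = 1.16e-04). Sln, the atrial inhibitor of the calcium pump, read 463 and 696 in wild type against 11.2 and 13.6 in floxed lungs (limma adjusted p = 2.74e-04). Both floxed readings were below background, so the size of its difference is not settled. Its log2 fold change was -4.36 with the probe set of highest level and -2.43 with the mean of its probe sets. The part of heart muscle content in the lower Nppa reading was not tested.

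Within the wild type pair, the order of Nppa and of these markers differed. All 16 cardiomyocyte markers that fell were higher in wild type replicate 2 than in replicate 1, whereas Nppa was higher in replicate 1. Of all genes tested, 48.7% were higher in replicate 2 and 51.3% in replicate 1. This describes 1 pair of arrays, in which markers of 1 cell type are not separate observations, and was not tested. Markers of fat cells also moved with genotype. Of 7 adipose genes fixed, 5 had a probe set and 3 were tested. All 3 fell, against 0.730% of all genes tested. Of these 3, 0 were higher in wild type replicate 2 than in replicate 1, the same order as Nppa. Car3, a carbonic anhydrase of fat cells, read 805 and 586 in wild type against 12.9 and 39.1 in floxed lungs. Its log2 fold change was -4.14 with the probe set of highest level and -1.79 with the mean of its probe sets. The other adipose genes tested were the hormone genes Adipoq and Retn. The median of the 3 was -1.73. Adipoq and Retn were near background on both floxed arrays. Their floxed level was under the filter, so they were tested only through wild type. Lep and Ucp1 were near background on all 4 arrays and were not tested. Retn did not pass when wild type replicate 1 or either floxed array was left out (limma adjusted p = 0.0541 to 0.0977) and, with no filter, Car3 alone passed. The list's summed intensity was 985 and 711 in wild type against 61.9 and 79.3 in floxed lungs, and the part of fat content in the Nppa reading was not tested.

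**Figure D3:**
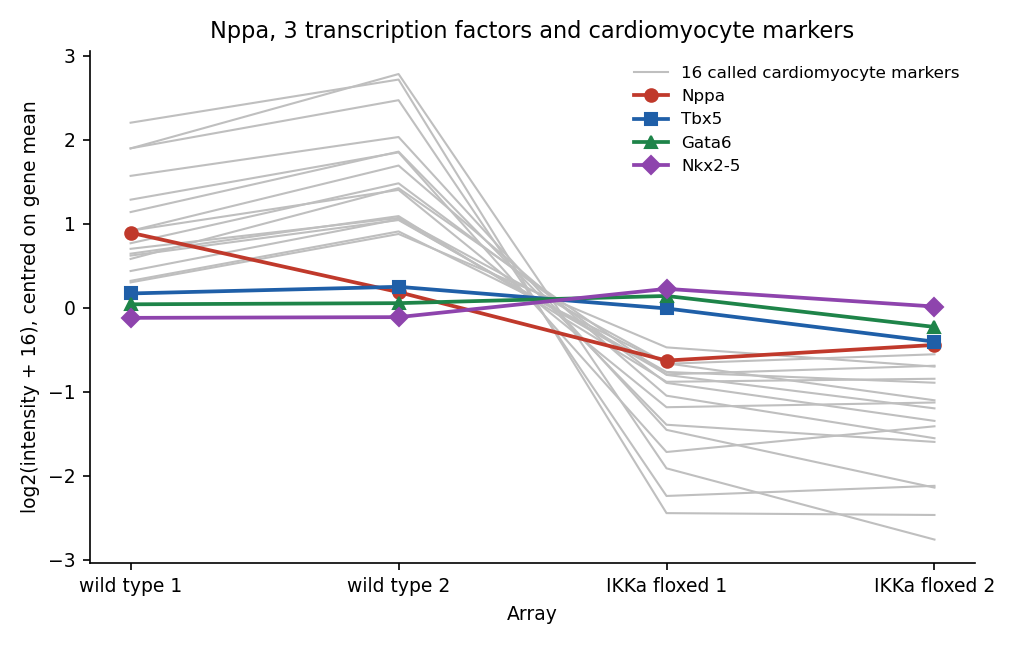
log2(intensity + 16) on the 4 arrays, centred on each gene's mean, with a line joining the values of 1 gene. Grey lines are the 16 cardiomyocyte markers that fell. Nppa (red) is highest on wild type replicate 1, and all grey lines are highest on wild type replicate 2. On wild type replicate 1, Tbx5, Gata6 and Nkx2-5 lie closer to 0 than Nppa.

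Most genes tested in the fixed list of other heart regulators did not pass. Of 34 symbols fixed, 31 had a probe set and 24 were tested. Of the 24, 2 fell, 0 rose and 22 did not pass. Of all genes tested, 0.730% fell and 0.997% rose. The median log2 fold change of the 24 was -0.028. Csrp3, the muscle LIM protein of the sarcomere's Z-disc, read 110 and 219 in wild type against 10.1 and 16.3 in floxed lungs (limma adjusted p = 0.00846). Foxc1, a forkhead factor of vessels and mesoderm, read 46.9 and 62.4 in wild type against 4.40 and 11.97 in floxed lungs (limma adjusted p = 0.0129). Both floxed arrays were near background for each of them, so the sizes are not settled. Their floxed level was under the filter, so both were tested only through wild type. With no filter neither passed (limma adjusted p = 0.0581 and 0.0750). Foxc1 also did not pass with a pseudocount of 1 (limma adjusted p = 0.0852). The log2 fold change of Foxc1 was -1.56 with its probe set of highest level and -0.96 with the mean of its probe sets. The remaining 4 of highest level, Hopx, Irx3, Tead1 and Mef2a, had log2 fold changes of 0.23, -0.082, -0.088 and -0.030. Of 10 tested genes in the list of other T-box, GATA and NK2 factors, none passed (median 0.066). Tbx4, the T-box factor of lung mesenchyme, stood at 0.19 and Gata2 at 0.23.

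The rest of the natriuretic peptide pathway showed no called gene. Of 12 tested, 0 rose and 0 fell, with a median log2 fold change of -0.010 and values from -0.30 to 0.32. Npr3, the clearance receptor that removes the peptides, read 411 and 745 in wild type against 370 and 573 in floxed lungs, with overlapping groups. Mme, or neprilysin, which degrades the peptides, read 1158 and 1132 in wild type against 933 and 1119 in floxed lungs, a small gap between the groups. Pde5a, a cyclic GMP phosphodiesterase, had a log2 fold change of 0.059 ± 0.12 SE. The next genes were chosen after their values were seen. Nppb, the B-type peptide, ranged from 10.1 to 24.9, and Corin, the protease that cuts the Nppa precursor, from 10.1 to 16.9. Npr1, the guanylate cyclase receptor of the peptide, read 37.0 and 22.1 in wild type against 40.6 and 28.7 in floxed lungs, and the groups overlapped.

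The connexins beside Gja5 showed no called gene among 5 tested of 12 measured (median -0.0085). Gja1, connexin 43, had a log2 fold change of -0.34 ± 0.17 SE, and Gja4, the other arterial connexin, of 0.13 ± 0.17 SE. Smooth muscle markers, which include targets of myocardin, had a median of -0.56 over 10 tested. Of these 10, 2 fell, against 0.730% of all genes tested. Acta2, smooth muscle actin, read 2223 and 2336 in wild type against 1363 and 1278 in floxed lungs (-0.78 ± 0.12 SE, limma adjusted p = 0.0307). Myh11, the smooth muscle myosin heavy chain, also fell (-1.14 ± 0.20 SE, limma adjusted p = 0.0472). Neither passed with the replicate number as a block (limma adjusted p = 0.0624 and 0.0843), with a pseudocount of 1 (0.0789 and 0.120) or with no filter (0.113 and 0.160). Acta2 did not pass whichever array was left out (limma adjusted p = 0.0545 to 0.147), and with the mean of its probe sets it stood at -0.25 (limma adjusted p = 0.391). Myh11 did not pass when wild type replicate 2 or either floxed array was left out (limma adjusted p = 0.0580 to 0.102), nor after quantile normalization (0.0551). Lung mesenchyme markers (7 tested, median 0.19), endothelial markers (7 tested, median -0.051) and type 2 epithelial markers (6 tested, median 0.14) held no called gene. The same was true of mesothelial markers (8 tested, median -0.074), skeletal muscle markers (2 of 15 tested, median -0.31) and markers of sympathetic neurons (3 tested, median 0.10). The ventricular list had 3 tested genes, with a median of -0.032. The myosin gene Myh7 stood at -0.032 and the repressor gene Hey2 at 0.39, and neither passed. The light chain gene Myl3, also on the cardiomyocyte list, read 33.0 and 57.6 in wild type against 8.71 and 10.7 in floxed lungs (limma adjusted p = 0.0389), with both floxed readings below background. Its call was lost with a pseudocount of 1 (limma adjusted p = 0.0630), with no filter (0.153), and when wild type replicate 2 or either floxed array was left out (0.0598 to 0.0944).

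**Figure D4:**
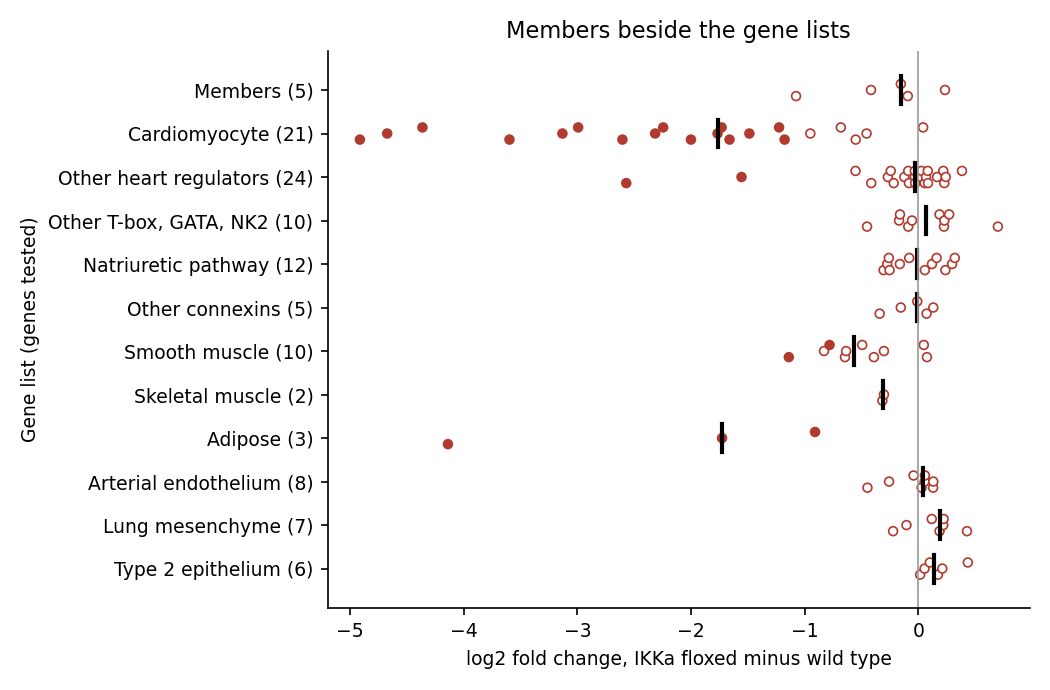
log2 fold change, floxed minus wild type, of each tested gene in the member list and 11 fixed lists, with the number tested in brackets. Filled points passed limma's adjusted p of 0.05, and black bars are medians. The cardiomyocyte median is -1.77 and that of the members -0.15.

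The 5 tested genes whose centred values lay closest to those of Nppa over the 4 arrays, by Euclidean distance in log2 units, were Cog7, Ltf, Penk, Acsm1 and Sbspon. Their distances ran from 0.22 to 0.37, over only 4 arrays. Cog7, a subunit of the Golgi tethering complex COG, read 364 and 209 in wild type against 116 and 161 in floxed lungs. Penk, the precursor of the enkephalin peptides, read 149 and 96.2 in wild type against 39.9 and 40.9 in floxed lungs.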

How the data were processed

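Lung RNA of 4 samples, 2 wild type and 2 floxed, was measured on 1 Affymetrix array each, and groups came from the sample titles. The deposited values are linear intensities per probe set, from Affymetrix Expression Console per the submitters' processing notes. Its version, its algorithm and a genome build were not given in the sources used here. After trimming 2% of probe sets from each end, every array's mean was 150.001, so values had been scaled to a common level. The platform annotation gave the gene symbols. Of 45101 probe sets, 64 were controls, 34945 had 1 symbol, 932 several and 9160 were not listed. Symbols were checked through Entrez numbers against RefSeq (GRCm38.p6), where 34741 matched and 0 changed.

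Levels were tested as log2(intensity + 16) in R 4.3.3 by limma 3.58.1 (lmFit, then eBayes; two-sided, Benjamini-Hochberg over all genes), after testing the procedure on simulated data. A second fit used every named probe set past the same level. An exact permutation test of 2 against 2 cannot go below p = 0.333, so none is given. Named genes were the members, called genes of the fixed lists and otherwise at most 4 per list by level, and the 5 genes nearest to Nppa. The members and lists were chosen with earlier results of these data known. Alternatives were pseudocounts, filters, quantile normalization, a trended robust prior, probe set means, the replicate block and leaving out each array. The targeted gene is not analysed here.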

Additional observations from a re-analysis of the deposited data

How the results depend on the processing

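With 2 arrays per group each gene had 2 residual degrees of freedom, and limma's prior, estimated over all genes tested, added 4.78. Of the 18 member probe sets, 9 carry no signal above background. Small differences in these factors could therefore not be measured. The 220 genes past the threshold became 103 with a pseudocount of 1, 360 with one of 64, 69 with no filter and 384 with a trended, robust prior, and ran from 146 (without wild type replicate 2) to 248 when 1 array was left out. The 213 probe sets became 61, 434, 51 and 457 in the same order, and ran from 190 to 296 when 1 array was left out. The cause of these shifts was not tested. The count of member genes past the threshold was 0, and it was 1, Nppa, with that prior or without wild type replicate 2; leaving out 1 array gave 0 to 1. Over its 11 alternatives Nppa kept its direction, with log2 fold changes from -1.68 to -0.52 and limma adjusted p from 0.00603 to 0.238. Tbx5 kept its direction in 12 of 12 alternatives, Nkx2-5 and Myocd in 11 of 11, and Gata6 in 11 of 12. With 1 array left out Gata6 ran from -0.28 to 0.092, the latter without floxed replicate 2. The replicate numbers share only a number: deviations of arrays with the same number correlated at -0.00033. With the replicate block, 188 genes, 153 probe sets and 0 members passed. The number of member probe sets near background on all arrays was 9 by either reference level.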
